A study of Mus musculus with 6 samples.

Results

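Pcna and Pcna-ps2 are 2 of the 47122 gene rows in an RNA-sequencing table of newborn mouse ovaries, and both were found by their symbols. Pcna-ps2 is annotated as a pseudogene of Pcna. The pair was chosen by its measured values: in an earlier look at these libraries Pcna-ps2 was the gene past the threshold when cKO replicate 2 was left out. Every group difference of these rows is therefore a description here, with no test. The question was whether reads listed under the pseudogene replace reads listed under its parent, library by library.

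The libraries are of total RNA from ovaries at 1 day post partum (dpp). The control group, WT, holds 3 samples with the genotype label WT, and the cKO group holds 3 samples with the label BCAS2 cKO, in which the splicing factor gene Bcas2 was deleted in oocytes. The driver of the deletion, the deleted exons, the mouse strain and any pooling of animals are not stated in the labels. Nothing there says that samples of a group came from separate animals, so p-values reflect sample-to-sample spread, part of which may be technical.

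PCNA is the sliding clamp of DNA replication, a protein ring that encircles DNA and holds the replicative polymerases to their template. A clamp loader opens the ring, and ubiquitination of the clamp recruits polymerases that copy damaged DNA. In the newborn ovary, dividing cells are found among the somatic cells, though not every somatic cell divides, while oocytes are arrested in meiotic prophase. A processed pseudogene is a copy of a spliced messenger RNA that was inserted back into the genome, so it lacks the introns of its parent.

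In the deposited coordinates (GRCm39), the Pcna gene starts at 132091206 and ends at 132095100 of chromosome 2, minus strand, with a gene model of 1260 bases. Pcna-ps2 occupies 9260602 to 9261859 of chromosome 19, plus strand, with a model of 1258 bases. No other row of the table overlaps either of them. A further copy, Pcna-ps1 on the X chromosome, is listed in the RefSeq gene table for GRCm38.p6; only its transcript sequence was used here, and its expression was not analysed.

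The Pcna-ps2 transcript of the GENCODE M21 annotation (GRCm38, chromosome 19, 9283380 to 9284160) was aligned to the spliced Pcna transcript. It is 781 bases long and matched the Pcna coding sequence from coding position 2 to 782, counted from the A of the start codon, with 6 substitutions and 0 gaps. The identity was 99.2%. The alignment runs without a break across all 5 exon junctions of Pcna, and the 259 codons read in the parent's frame held 0 stop codons. For comparison, the Pcna-ps1 transcript had 141 substitutions and 12 gaps against Pcna, an identity of 76.8%.

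The 6 differences are all that separates a read of one row from a read of the other over this stretch, and they are shown here for that reason. They are A144G, A177C, G424A, A586G, G618T and G699A, written with the base of Pcna, the coding position and the base of Pcna-ps2. Of these, 4 are at the third position of a codon and 2 at the first. In the sequences below, capitals mark the differing bases. The first stretch covers coding positions 124 to 197, which in Pcna is in exon 1 (GRCm38, chr2:132252840-132252913, minus strand) and in Pcna-ps2 is chr19:9283502-9283575, plus strand.
Pcna: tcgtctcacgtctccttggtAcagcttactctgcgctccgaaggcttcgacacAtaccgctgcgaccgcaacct
Pcna-ps2: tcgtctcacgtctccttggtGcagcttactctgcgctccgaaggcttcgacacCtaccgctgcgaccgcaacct
The second stretch, coding positions 404 to 444, is in exon 4 of Pcna (chr2:132251382-132251422) and at chr19:9283782-9283822 in Pcna-ps2.
Pcna: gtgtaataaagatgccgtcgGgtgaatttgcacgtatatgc
Pcna-ps2: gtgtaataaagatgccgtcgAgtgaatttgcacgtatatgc
The third stretch, coding positions 566 to 719, is spliced from exons 4, 5 and 6 of Pcna and is continuous at chr19:9283944-9284097 in Pcna-ps2.
Pcna: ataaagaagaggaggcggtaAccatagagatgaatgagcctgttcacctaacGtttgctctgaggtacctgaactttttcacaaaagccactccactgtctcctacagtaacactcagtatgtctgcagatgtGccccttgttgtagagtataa
Pcna-ps2: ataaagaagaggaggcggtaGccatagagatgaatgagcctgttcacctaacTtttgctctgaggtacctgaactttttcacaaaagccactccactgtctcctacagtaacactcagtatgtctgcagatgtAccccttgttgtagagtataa

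Between the differing bases the copies are identical, with a longest identical run of 246 bases, from coding position 178 to 423. Of all windows of 50 bases along the alignment, 63.8% held no differing base. The share was 37.0% for windows of 100 bases and 17.2% for windows of 150 bases. Of the windows of 100 bases, 64.5% span an exon junction of Pcna, where the pseudogene carries the joined exons in its own genomic sequence. The labels give neither the read length nor how reads that match both places were counted. The transcript covers 62.1% of the 1258-base gene model of Pcna-ps2, and the rest of the model was not compared.

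**Figure D1:**
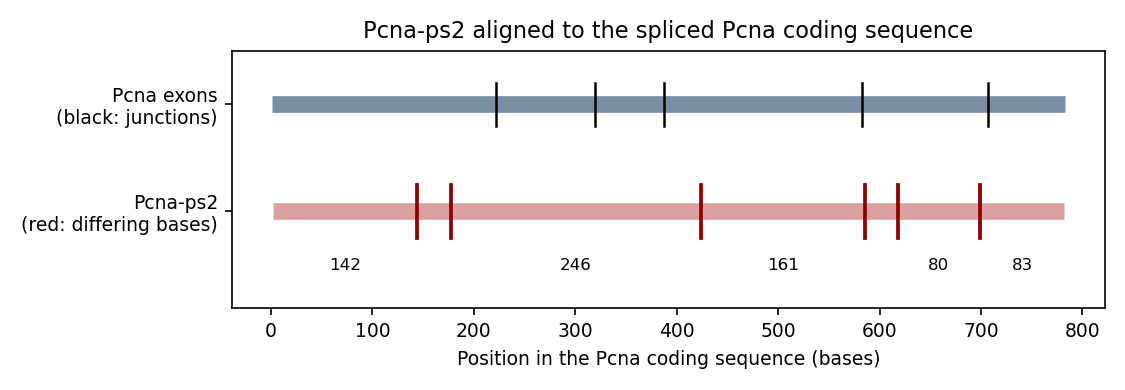
The upper bar is the Pcna coding sequence with its 5 exon junctions (black), and the lower bar is Pcna-ps2 aligned to it, with the 6 differing bases in red; the horizontal axis is the coding position in bases. Numbers under the lower bar are the lengths of identical runs, from 80 to 246 bases, with the 2 shortest runs (31 and 32 bases) left unlabelled.

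The gene rows of a library held between 16800421 and 19565275 reads in all. These were recovered as whole numbers from the deposited FPKM (fragments per kilobase of gene, scaled for library size). A read under Pcna-ps2 was worth between 0.0407 and 0.0472 FPKM. Bcas2, the targeted gene, was at 54.5, 37.5 and 35.7 FPKM in WT replicates 1, 2 and 3. Its cKO values were 18.9, 21.9 and 18.3 FPKM, every one below every WT library (log2 fold change −1.05, SE 0.17, limma adjusted p = 0.955). Of the defining ovary markers, all 8 germ cell and oocyte markers and all 8 pregranulosa markers were above 0 in every library. A description label also speaks of granulosa cells, whereas title, tissue and design name the ovary.

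Pcna itself was at 84.1, 122.1 and 131.5 FPKM in WT replicates 1, 2 and 3, and at 84.7, 136.5 and 100.4 FPKM in cKO replicates 1, 2 and 3. The groups overlapped fully, with the lowest value in WT replicate 1 and the highest in cKO replicate 2. Pcna averaged 112.6 ± 25.1 FPKM (SD, n = 3) in the WT group. The cKO average was 107.2 ± 26.6 FPKM (SD, n = 3), or 0.953 of the WT average. On the log2(FPKM + 1) scale the difference, cKO minus WT, was −0.07 (SE 0.23, 95% interval −0.61 to 0.47). Its sign turned without WT replicate 3 (0.05) and without cKO replicate 1 (0.08). In bulk ovary RNA, fewer dividing cells and less RNA per cell cannot be told apart.

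Pcna-ps2 was high in 2 of the 6 libraries. It was at 0.319, 0.412 and 0.773 FPKM in WT replicates 1, 2 and 3, resting on 7, 9 and 19 reads. In cKO replicates 1, 2 and 3 it was at 19.2, 1.18 and 16.6 FPKM, resting on 419, 25 and 387 reads. The cKO libraries therefore did not share a level: replicate 1 was 16.2 times and replicate 3 was 14.1 times the level of replicate 2. Replicate 2 was near the WT libraries.

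Counting error separates some of these values and not others. The exact 95% Poisson intervals were 17.4 to 21.1 FPKM for cKO replicate 1 and 15.0 to 18.3 FPKM for cKO replicate 3, far from all other libraries. For cKO replicate 2 the interval was 0.764 to 1.74 FPKM, which overlaps those of WT replicate 3 (0.465 to 1.21 FPKM) and WT replicate 2 (0.188 to 0.782 FPKM) but not that of WT replicate 1 (0.128 to 0.658 FPKM). These intervals cover counting error only. Pcna-ps2 was thus above 0 in every library, including those with the lowest counts.

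Pcna-ps2 averaged 0.501 ± 0.240 FPKM (SD, n = 3) in the WT group. The cKO average was 12.3 ± 9.73 FPKM (SD, n = 3), 24.6 times higher. The log2(FPKM + 1) difference was 2.62 (SE 0.80). All 3 cKO values were above all 3 WT values, as for 4.2% of the 14589 tested genes. With the limma fit over all tested genes, 0 of the 2 members and 0 genes in all (0%) passed an adjusted p of 0.05. In all, 443 genes (3.04%) had an unadjusted p under 0.05. Nothing is read from these counts, because this contrast chose the pair.

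That difference depended on single libraries. Without cKO replicate 2 it was 3.66 (SE 0.19), and Pcna-ps2 was then the 1 gene past the threshold (limma adjusted p = 0.0177), the result that chose it. Leaving out that library takes away the low cKO value. Without cKO replicate 1 the difference was 2.06 and without cKO replicate 3 it was 2.15. Pcna-ps2 also passed the filter on low values, at least 1 FPKM in at least 3 libraries, through the cKO libraries alone, and the 1.18 FPKM of cKO replicate 2 completed that number.

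**Figure D2:**
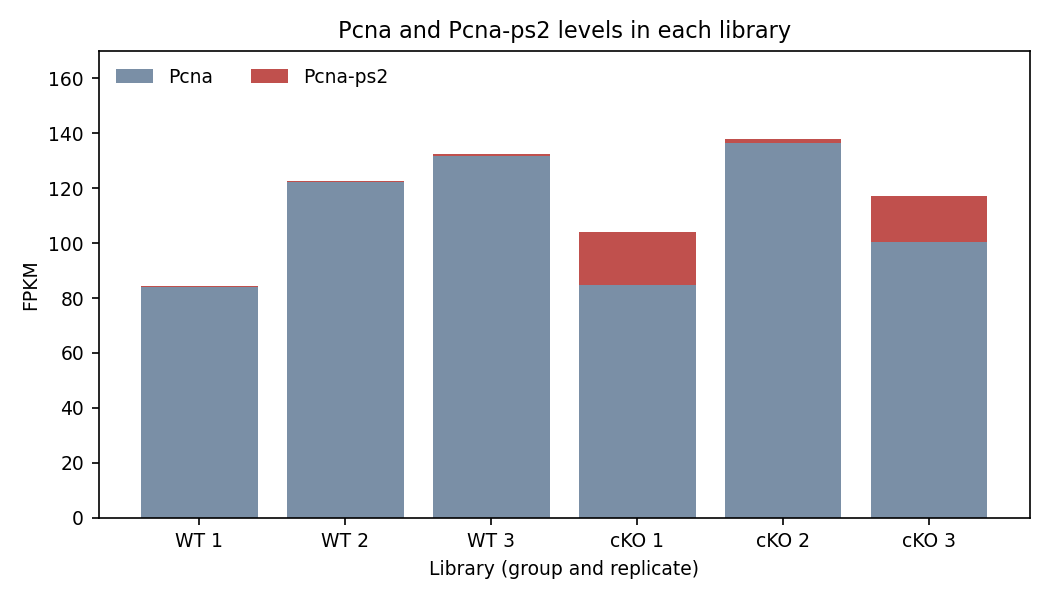
Bars stack the FPKM of Pcna (blue-grey) and Pcna-ps2 (red) in each of the 6 libraries, from 0, so that the bar's height is their sum; there is 1 value per library and no error bar. The red part is visible as a block in cKO replicates 1 (19.2 FPKM) and 3 (16.6 FPKM), while Pcna alone spans 84.1 to 136.5 FPKM.

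As a share of the reads of both rows, Pcna-ps2 held 0.378% in WT replicate 1 (7 of 1853 reads, Wilson 95% interval 0.183 to 0.778%). It held 0.336% in WT replicate 2 (9 of 2680, 0.177 to 0.637%) and 0.584% in WT replicate 3 (19 of 3256, 0.374 to 0.910%). The WT intervals overlapped one another. In cKO replicate 1 the share was 18.4% (419 of 2274, 16.9 to 20.1%), in cKO replicate 2 it was 0.856% (25 of 2921, 0.580 to 1.26%), and in cKO replicate 3 it was 14.2% (387 of 2730, 12.9 to 15.5%). The high shares of cKO replicates 1 and 3 also differed from each other by more than counting error. Over all 6 libraries the share ran from 0.336% to 18.4%.

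The share averaged 0.432 ± 0.133% (SD, n = 3) over the WT libraries. Over the cKO libraries it averaged 11.2 ± 9.17% (SD, n = 3), which is 10.7 percentage points more. It was 15.9 points without cKO replicate 2, 7.08 points without cKO replicate 1 and 9.21 points without cKO replicate 3. The spread within cKO was nearly as large as the difference between the groups.

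**Figure D3:**
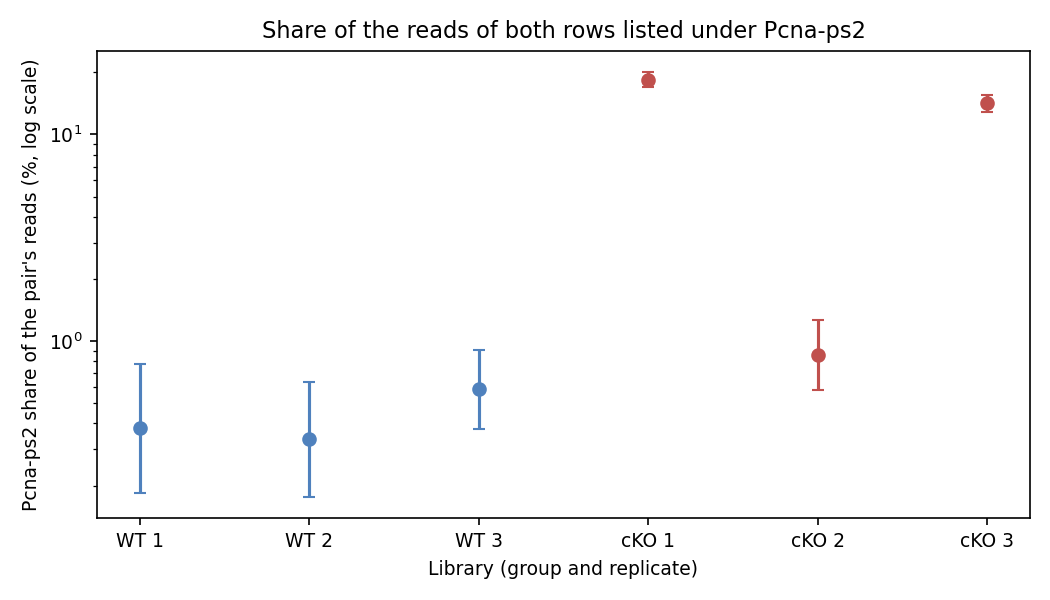
Points are the percentage of the reads of both rows that were listed under Pcna-ps2 in each library, on a log axis, with Wilson 95% intervals as bars (WT blue, cKO red). The WT libraries and cKO replicate 2 sit between 0.336% and 0.856%, and cKO replicates 1 and 3 sit at 18.4% and 14.2%.

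The sum of both rows was 84.4, 122.5 and 132.3 FPKM in WT replicates 1, 2 and 3, and 103.9, 137.7 and 117.0 FPKM in cKO replicates 1, 2 and 3. In cKO the sum varied less than Pcna alone, with an SD of 17.1 against 26.6 FPKM. In WT, where the pseudogene held few reads, the SD was 25.3 FPKM for the sum and 25.1 FPKM for Pcna alone. Adding the rows together narrowed the cKO libraries but did not bring them level.

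Within cKO, the libraries with more Pcna-ps2 had less Pcna. From replicate 2 to replicate 1, Pcna was lower by 51.8 FPKM and Pcna-ps2 was higher by 18.0 FPKM, which is 34.7% of the Pcna drop. From replicate 2 to replicate 3, Pcna was lower by 36.2 FPKM and Pcna-ps2 higher by 15.4 FPKM, or 42.7% of the drop. In both comparisons the Pcna-ps2 increase was smaller than the Pcna drop. The mean of 12 mitotic genes, described below, was also lower in replicates 1 and 3 (4.03 and 4.19 on the log2 scale) than in replicate 2 (4.66). Whether reads moved from one row to the other was not tested. From replicate 1 to replicate 3, Pcna was higher by 15.7 FPKM and Pcna-ps2 lower by 2.55 FPKM.

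Within WT, both rows were in the same order. Pcna was lower by 47.4 FPKM in replicate 1 than in replicate 3, and Pcna-ps2 was lower too, from 0.773 to 0.319 FPKM. The highest WT library was 2.42 times the lowest for Pcna-ps2, on 7 to 19 reads, and 1.56 times for Pcna. WT replicate 1 had as little Pcna (84.1 FPKM) as cKO replicate 1 (84.7 FPKM), with 7 reads under Pcna-ps2 against 419. The Pcna-ps2 values fall into separate clusters and neither holds 6 libraries, so no correlation between the rows is given.

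Of the marker lists used here, some stood apart in 2 of the libraries, those with the lowest and the highest Pcna. WT replicate 1, lowest in Pcna, had the highest summed level of 7 stroma markers (1366 FPKM, against 394.4 to 644.2 FPKM in the other WT and 394.9 to 510.7 FPKM in the cKO libraries). It also had the highest sum of 6 endothelial markers (115.5 FPKM, against 25.6 to 39.5 FPKM in the other 5). Its sum of 5 surface epithelium markers was the lowest (169.2 FPKM, against 391.9 to 485.2 FPKM in the other 5). cKO replicate 1, with a Pcna level of 84.7 FPKM, had none of these extremes. cKO replicate 2, highest in Pcna, had a sum of 13348 FPKM for 7 red blood cell markers, against 400.7 to 1141 FPKM in WT and 692.9 to 1209 FPKM in the other cKO libraries. All members of these lists were above 0 in every library. The part of these cells in the Pcna level was not tested.

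In the libraries high in Pcna-ps2 the same lists were not at an extreme. In cKO replicates 1 and 3, the endothelial sums were 37.6 and 31.3 FPKM and the stroma sums 510.7 and 442.6 FPKM, inside the WT range. Their red blood cell sums were 692.9 and 1209 FPKM. The 8 germ cell and oocyte markers summed to 606.2, 718.5 and 577.3 FPKM in cKO replicates 1, 2 and 3 and to 540.9 to 819.1 FPKM in WT, and the pregranulosa markers to 451.0, 470.3 and 540.6 FPKM against 415.2 to 541.5 FPKM in WT. The lists did not cover every cell type. S100a8 and S100a9, in none of the lists and named after their values were seen, were highest in cKO replicate 3. They were at 248.1 and 219.4 FPKM there, against 4.55 to 48.4 and 2.61 to 32.3 FPKM elsewhere. In cKO replicate 1 they were at 7.49 and 5.16 FPKM. The part of any cell type in the Pcna-ps2 level was not tested.

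The pathway around the clamp was read from 89 genes in 6 lists, of which 87 passed the filter on low values. None was called in either direction: 0 rose and 0 fell at an adjusted p of 0.05 in limma, beside 0% of all tested genes, and 2 had an unadjusted p under 0.05. The log2 fold changes ran from −0.26 to 0.45, with 36 above 0 and 51 below, and a median of −0.02, against −0.0058 over all tested genes. All values that follow are FPKM means with SD (n = 3 each), WT first and cKO second.

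Clamp loaders and unloaders had 8 of 9 genes tested, 0 called, with a median log2 fold change of 0.05. Chtf8, a subunit of an alternative loader, was listed at 0 in all 6 libraries and was not tested. Rfc1, the large subunit of the loader, was at 24.1 ± 1.70 and 21.8 ± 1.69. Rfc4, a small subunit, was at 43.2 ± 8.70 and 46.7 ± 4.76. Atad5, which takes the clamp off DNA, was at 4.40 ± 0.360 and 3.78 ± 0.284, and its groups did not overlap, with cKO lower. Rfc3, another small loader subunit, named after its values were seen, was at 29.6 ± 0.521 and 32.9 ± 4.23 and did not overlap either, with cKO higher. Of the 87 tested genes of all 6 lists, 2 did not overlap with cKO higher and 3 with cKO lower. Over all tested genes 7.88% did not overlap in either direction.

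Replicative polymerases and genes of Okazaki fragment processing had 18 of 18 tested and 0 called, with 9 above and 9 below 0. Pold1, the catalytic subunit of polymerase delta, was at 16.4 ± 2.04 and 14.6 ± 1.42. Fen1, the flap nuclease, was at 20.9 ± 6.45 and 23.6 ± 3.51. It is also among the genes within 1 Mb of Pcna-ps2. Lig1, the ligase that seals the fragments, was at 40.1 ± 6.22 and 37.8 ± 1.35.

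Among genes of clamp ubiquitination and translesion synthesis 17 of 17 were tested and 0 called, with a median of −0.02. Rad18, the ligase that ubiquitinates PCNA, was at 6.50 ± 0.444 and 6.87 ± 0.582. Usp1, which removes that mark, was at 30.8 ± 3.97 and 27.1 ± 3.96. Polh, a translesion polymerase, was at 7.39 ± 0.415 and 6.81 ± 0.708. Of proteins that bind the clamp, 12 of 13 genes were tested and 0 called, with a median of −0.04.

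Cdkn1a, the p21 inhibitor that binds PCNA, was at 5.18 ± 0.986 and 7.39 ± 1.05, a log2 fold change of 0.45 (SE 0.16, limma adjusted p = 0.955), and the groups overlapped. Pclaf, a PCNA-associated factor, was at 11.02 ± 2.87 and 10.4 ± 3.87. Dtl, which directs the destruction of PCNA-bound proteins, was at 11.9 ± 0.0812 and 11.3 ± 0.554. Dnmt1, the maintenance DNA methyltransferase, was at 31.9 ± 1.12 and 29.5 ± 2.92. Msh6, a mismatch repair protein, was at 45.9 ± 5.30 and 40.7 ± 2.15, and Chaf1a, a histone chaperone subunit, was at 16.9 ± 2.49 and 15.4 ± 0.839. None of these differences passed the test.

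Origin licensing and helicase genes had 20 of 20 tested and 0 called, with 5 above and 15 below 0 and a median of −0.05. Mcm2 and Mcm5, subunits of the replicative helicase, were at 34.4 ± 3.69 and 32.2 ± 3.44, and at 40.3 ± 7.10 and 37.3 ± 2.39. Cdc45, which joins the helicase at firing origins, was at 3.95 ± 0.967 and 3.97 ± 0.894. The mitotic list had 12 of 12 tested and 0 called, with a median of −0.03. Mki67, the Ki-67 proliferation antigen, was at 17.1, 19.5 and 21.9 FPKM in WT, while the cKO values were 11.9, 36.4 and 14.7 FPKM. Top2a, the mitotic topoisomerase, was at 24.5, 33.5 and 26.7 FPKM in WT and 17.5, 32.6 and 22.7 FPKM in cKO. Both were lower in cKO replicates 1 and 3 than in cKO replicate 2, as Pcna was.

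The Pcna level in each library can be set against these lists. Centred on the mean of the 6 libraries, Pcna minus the mean of the licensing and helicase list was −0.13, 0.10 and 0.09 in WT replicates 1 to 3 and −0.27, 0.29 and −0.07 in cKO replicates 1 to 3, on the log2 scale. With the Pcna-ps2 FPKM added to Pcna, the same values were −0.22, 0.01 and 0.0059 in WT and −0.07, 0.21 and 0.06 in cKO. The range over the 6 libraries went from 0.56 to 0.43. Against the mitotic list it went the other way, from 0.29 for Pcna alone to 0.43 for the sum. Pcna alone minus the mitotic list was −0.18, 0.11 and 0.11 in WT replicates 1 to 3. In cKO replicates 1 to 3 it was −0.06, −0.0007 and 0.03. The comparison therefore depended on the list: the 4 other lists gave ranges of 0.52 to 0.68 for Pcna alone and 0.42 to 0.66 for the sum.

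**Figure D4:**
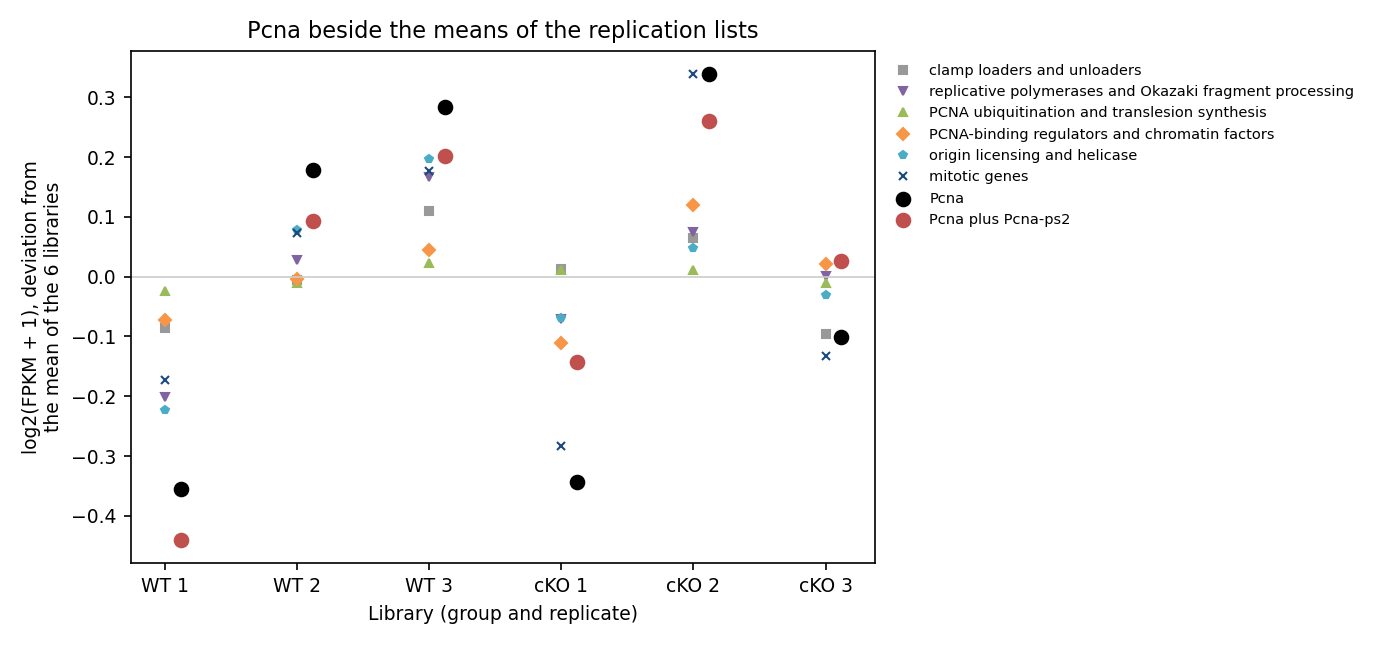
For each library, small symbols are the means of log2(FPKM + 1) over the tested members of the 6 lists, and large circles are Pcna (black) and the sum of Pcna and Pcna-ps2 (red), each as the deviation from its own mean over the 6 libraries. Adding Pcna-ps2 lifts the circle in cKO replicates 1 and 3 relative to the other libraries, and WT replicate 1 stays the lowest.

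The genes closest to Pcna in pattern were found by correlation. Among 8841 other protein-coding genes with a mean of at least 5 FPKM, the highest Pearson r of log2(FPKM + 1) with Pcna over the 6 libraries belonged to Cenpm, a centromere protein (0.99), Thoc6 of the THO complex (0.98), Nfkbil1 (0.97), Rab6b, a small GTPase (0.97), and Ckap2, a spindle-associated protein (0.96). Cenpm was at 6.33, 7.79 and 7.75 FPKM in WT, and its cKO values were 6.22, 8.08 and 6.78 FPKM. These are descriptions over 6 points that share libraries, picked as the highest of many.

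For Pcna-ps2 such a ranking rests on the libraries that stood apart, cKO replicates 1 and 3, so its r values are not given. The genes ranked first were Nupr1, a stress-induced regulator, Osbpl2, Kmt5b, a histone methyltransferase, Zfp317 and Msmo1, a cholesterol synthesis enzyme. Their ranges over the 6 libraries were 0.14 to 0.81 on the log2 scale, against 3.93 for Pcna-ps2. Nupr1, for example, was at 5.87, 5.43 and 5.56 FPKM in WT, with cKO values of 9.65, 6.07 and 7.59 FPKM.

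The neighbours of Pcna-ps2 are far from it. The nearest row on one side, the long noncoding RNA gene Gm9750 at a distance of 6622 bases, was listed at 0 in 5 libraries and at 0.0387 FPKM in WT replicate 3. The nearest tested gene on that side, Asrgl1, 147672 bases away, was at 4.52, 5.42 and 6.35 FPKM in WT, close to its cKO values of 4.48, 5.23 and 6.08 FPKM. On the other side Stxbp3-ps, 273111 bases away, was at 1.48, 1.37 and 1.12 FPKM in WT, and cKO replicates 1, 2 and 3 had 1.77, 0.885 and 2.47 FPKM. Groups overlapped for both genes. Within cKO, Stxbp3-ps, like Pcna-ps2, was lowest in replicate 2, over a smaller range and on 15 to 46 reads. Of 51 tested genes within 1 Mb, 7 had groups that did not overlap (4 with cKO higher), beside 7.88% of all tested genes. None was called, as was no gene in the whole table, and the log2 fold changes ran from −0.77 to 0.67. Among the 3 cKO libraries, the largest log2(FPKM + 1) range of these 51 genes was 2.35, for LOC115489083. That range was 3.21 for Pcna-ps2, and the median over all tested genes was 0.27.

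Next to Pcna, Tmem230 lies 1498 bases away and the noncoding AV099323 starts 158 bases away on the opposite strand. Tmem230, a transmembrane protein gene, averaged 28.3 ± 3.51 FPKM in the WT and 35.4 ± 1.83 FPKM in the cKO libraries (SD, n = 3 each), with groups that did not overlap and a limma adjusted p of 0.955. AV099323 was below the filter, at 0.466 ± 0.0736 and 0.723 ± 0.0985 FPKM. Of 17 tested genes within 1 Mb of Pcna, 1 had groups that did not overlap, beside 7.88% of all tested genes, and 0 were called. The strand setting of the counting is not given, so reads of AV099323 and Pcna are told apart only by position.

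Other pseudogenes were compared with their parents in the same way. Of 664 symbols that end in -ps or -ps and a number, 472 had a parent symbol in the table, and 157 of these had a mean of at least 10 pseudogene reads. For each, the log2 ratio of pseudogene to parent reads was taken in every library with 0.5 added to both. Its range over the 6 libraries was 5.99 for Pcna-ps2, against a median of 0.83 for the 156 other pairs, and 1 pair had a larger range. The ratio of Pcna-ps2 to Pcna was thus among the least steady of these pairs, a description that includes the contrast by which Pcna-ps2 was chosen.

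The spread within each group is given as a description, since the choice of Pcna-ps2 rested on a call made without its low cKO library. The log2(FPKM + 1) range among the 3 cKO libraries was 3.21 for Pcna-ps2, and 37 of the 14589 tested genes had a larger one, with a median of 0.27 over all. For Pcna it was 0.68, and 1339 genes had a larger one. Among the 3 WT libraries the range was 0.43 for Pcna-ps2 and 0.64 for Pcna, against a median of 0.36.

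**Figure D5:**
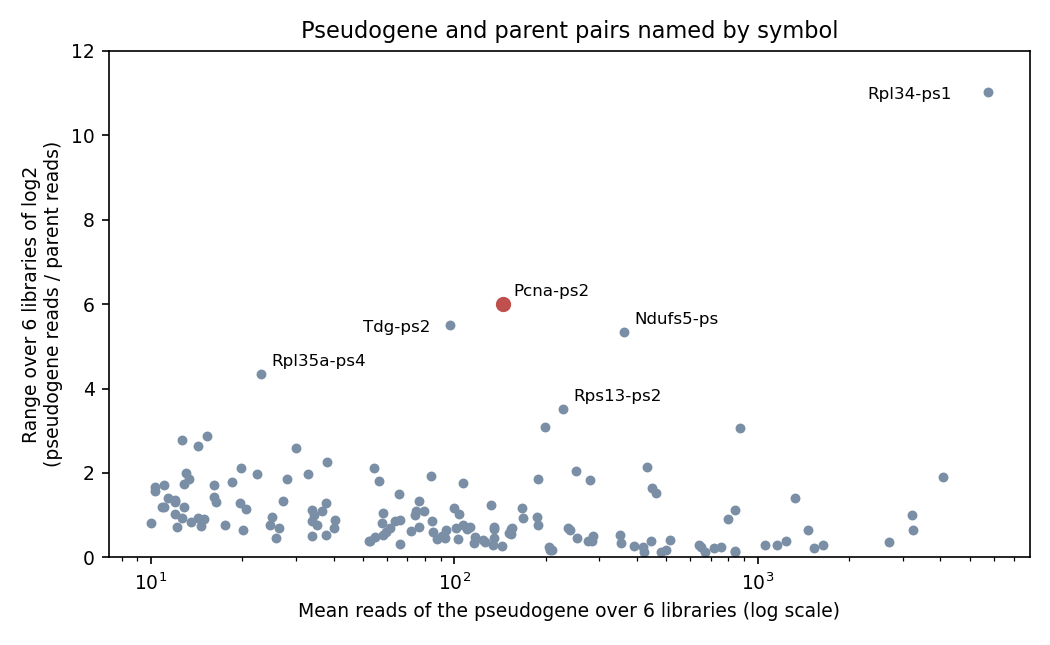
Each point is 1 of 157 pseudogene and parent pairs; the horizontal axis is the mean number of pseudogene reads over 6 libraries (log scale) and the vertical axis is the range over those libraries of the log2 ratio of pseudogene to parent reads. Pcna-ps2 (red) is at 5.99, under Rpl34-ps1 at 11.0 and above all others, whose median is 0.83.

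Among the pairs with at least 10 pseudogene reads in every library, the 5 with the most reads were Rpl34-ps1, Rpl17-ps10, Rps12-ps3, Rpl17-ps3 and Rps10-ps2, all of ribosomal protein genes. Rps10-ps2 held 26.5 to 31.7% of the reads of its pair in every library, and Rps12-ps3 held 36.8 to 47.6%. Rpl17-ps10 held 36.7 to 68.3% and Rpl17-ps3 36.1 to 53.2% of its own pair with Rpl17. The share of Rpl34-ps1 ran from 2.36 to 98.1%. Pcna-ps2 itself, with 7 and 9 reads in WT replicates 1 and 2, was under that read limit. Its share was under 1% in 4 libraries and 14.2 and 18.4% in the others. Of the 5 pairs, Rpl34-ps1 and Rpl17-ps10 spanned more percentage points than Pcna-ps2.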

How the data were processed

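The members and gene lists were chosen with earlier results of these data known. The authors deposited FPKM values for ovary libraries, 3 WT and 3 cKO, 1 column each, with gene lengths. Per the submitters' processing notes, HISAT2 2.0.5 was used, and mm10 as well as GRCm39 is listed as a build. Counting tool, annotation release, strand and treatment of multiply matching reads: not given in the sources used here.

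FPKM times gene length, divided by 1 step per library, gave whole reads: 100% of values under 1500 reads lay within 0.05 of a whole number. The files were tested as log2(FPKM + 1) with limma 3.58.1 in R 4.3.3 (trend, two-sided, Benjamini-Hochberg over 14589 genes with at least 1 FPKM in at least 3 libraries). The group labels, not a block, were the only terms. The script was tested on simulated data. Sequences came from GENCODE M21 transcripts (GRCm38), aligned with Biopython 1.88. Named genes were the pair, Bcas2, 20 pathway genes, nearest neighbours, the 5 most similar genes per member and the 5 pairs with most pseudogene reads. The sum of the rows and its deviations from list means were added after the values were seen.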

Additional observations from a re-analysis of the deposited data

How the results depend on the processing

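The Pcna difference moved by less than 1 SD of the libraries under all 14 alternatives (−0.27 to 0.08 on the log2 scale), 12 of them below 0. The Pcna-ps2 difference was above 0 in all 13 alternatives that gave a value, from 2.06 to 3.93, a direction that the choice of the gene fixes, the highest with limma-voom on recovered reads (3.93). A pseudocount of 0.1 gave 3.70. The filter at 5 FPKM left Pcna-ps2 untested. The number of genes called was 0 under every alternative except those that left out a library, where it ran from 0 to 1 (1 without cKO replicate 2); at an unadjusted p under 0.05, no filter gave 1147 of 33311 genes, the filter at 5 FPKM 254, leaving out WT replicate 3 1056, cKO replicate 3 702, cKO replicate 1 293 and cKO replicate 2 253. Pathway genes called stayed at 0. The share difference ran from 7.08 to 15.9 points with a library left out. With the replicate block, the differences were −0.07 and 2.62 and 0 genes were called; deviations of same-numbered libraries correlated at 0.22, 0.01 and −0.03, and not every library correlated best with its own number. Planned correlations between the rows were not run, because the Pcna-ps2 values form separate clusters. At 7 to 25 reads, differences between the WT libraries and cKO replicate 2 are limited by depth.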

Other observations

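Some other pairs had pseudogene and parent values that moved in opposite directions, chosen after their values were seen. Rpl34-ps1, a copy of the ribosomal protein gene Rpl34 that the table lists as protein-coding, was at 17.9 FPKM in WT replicate 1 and at 661.3 and 961.1 FPKM in the other WT libraries, while Rpl34 was at 250.1, 85.0 and 8.96 FPKM. In cKO, Rpl34-ps1 was at 961.9 to 1052 FPKM and Rpl34 at 6.64 to 9.09 FPKM. Ndufs5-ps, a copy of a subunit gene of respiratory complex I, was at 4.71, 19.8 and 50.6 FPKM in WT and 64.8, 100.05 and 6.59 FPKM in cKO, and Ndufs5 was at 93.9, 77.1 and 69.2 FPKM and at 54.1, 48.8 and 93.9 FPKM in the same libraries. For Ndufs5 the order of the libraries by pseudogene level was the reverse of that by parent level. For Pcna the lowest parent level, in WT replicate 1, came with the lowest pseudogene level.

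The libraries that stood apart were not the same for every pseudogene. Tdg-ps2, a copy of the DNA glycosylase gene Tdg, was at 8.36 FPKM in WT replicate 1 and between 0.238 and 1.68 FPKM in the other 5. Rps13-ps2 was at 1.93 FPKM in cKO replicate 2 and between 19.4 and 41.0 FPKM in the other 5. The pseudogene Gm8730, whose symbol names no parent, was at 64.6 FPKM in cKO replicate 1, a library also high in Pcna-ps2. Elsewhere Gm8730 was between 2.94 and 4.03 FPKM. These are values of single libraries, with no test.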
